A study of Mus musculus with 10 samples.

Results

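The 10 genes described here encode BCL2 family proteins that decide whether a cell survives or dies through its mitochondria. They were taken by symbol from a list of 10 (Bcl2, Bcl2l1, Mcl1, Bcl2a1b, Bcl2a1d, Bcl2l11, Bbc3, Pmaip1, Bax and Bak1), and all 10 were found among the 45706 genes of the expression table. RNA had been sequenced from spleen T cells and from type 2 conventional dendritic cells (cDC2s), which present antigen mainly to CD4 T cells, of mice. Control mice carried floxed Cd47 alleles (Cd47f/f). In Cd47ΔT mice, by the name of the genotype, Cd47, which codes for a surface protein that restrains uptake by phagocytes, is deleted in T cells. T cells were profiled in 2 libraries and cDC2s in 3 libraries of each genotype. The Cre line and its promoter, the deleted exons, the way the cells were isolated and the age of the mice are not among the details given in the sources used here. All cDC2s had SMART-seq stranded libraries and all T cells TruSeq stranded mRNA libraries. Cell type and kit therefore cannot be told apart in any level or genotype effect set across them. The title places the study in peripheral T cell survival and necroptosis. In these bulk preparations, fewer cells of a type and less RNA per cell cannot be told apart.

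BCL2 family proteins act at the outer mitochondrial membrane and fall into 3 classes. Antiapoptotic members (Bcl2, Bcl2l1, which codes for BCL-XL, Mcl1 and the Bcl2a1 genes, which code for A1) bind and hold the killers in check. BH3-only members (Bcl2l11, which codes for BIM, Bbc3 for PUMA and Pmaip1 for NOXA) are the stress sensors that occupy those proteins. The effectors Bax and Bak1 form pores that release cytochrome c and so switch on caspases. Naive T cells are known to live on interleukin 7 signals that sustain BCL2, and BIM is the main brake on their survival. A1 is an NF-kB target of activated lymphocytes and myeloid cells. Only mRNA was measured here, and these proteins are also regulated after translation.

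Values are TPM, transcript abundances that are scaled for transcript length and to one total per library. Sequencing depth cannot be read from them and is unknown. Log2 fold changes compare Cd47ΔT with Cd47f/f after adding 1 to each TPM, a scale that shrinks the changes of low genes. Each is given ± SE with limma's p adjusted by Benjamini-Hochberg over all genes tested, and a gene was called where that p was under 0.05. Whether replicate libraries stem from different mice is not stated in the labels, and the p-values cover only the spread between libraries, which may be technical. Cd47 itself stood at 138 and 233 TPM in control and at 40.4 and 51.7 TPM in Cd47ΔT T cell libraries, and at 149 and 148 TPM on average in the cDC2 groups. Among the cDC2 libraries, Cd47f/f library 3 stood apart, with a Pearson r across genes between 0.929 and 0.937 to each other library, while all other pairs reached at least 0.945. In T cells 1058 genes were called higher and 109 lower, in cDC2s 30 and 46, and for the difference between the cell types 575 and 32. With quantile scaling these became 655 and 336, 34 and 36, and 299 and 81, and with median-of-ratios scaling 946 and 264, 40 and 35, and 419 and 77. With protein-coding scaling they were 1094 and 109, 62 and 64, and 502 and 50. The median gene stood at 0.10 in T cells, at -0.08 with quantile and -0.04 with median-of-ratios scaling, so T cell changes are also given relative to that median.

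The Cd47ΔT T cell libraries also held more RNA of marker genes of other cell types. Of 8 cDC2 markers tested, 7 were higher, and the summed level of that list went from 38.1 to 53.04 TPM in control to 314 to 542 TPM in Cd47ΔT libraries. All 11 monocyte and macrophage markers were higher (645 to 829 against 2088 to 2382 TPM), as were 5 of 5 B cell markers tested (14.8 to 16.2 against 52.8 to 123 TPM) and 5 of 6 plasma cell markers (96.4 to 112 against 406 to 444 TPM). The count was 4 of 6 for neutrophils (5.17 to 11.2 against 39.9 to 116 TPM, with the defining marker Ly6g at 0 in all 4 libraries), 5 of 8 for NK cells (462 to 561 against 1092 to 1254 TPM), 4 of 5 for erythroid cells (27.9 to 38.6 against 89.7 to 178 TPM), 4 of 5 for cDC1s (32.4 to 46.9 against 68.7 to 91.1 TPM) and 2 of 6 for plasmacytoid dendritic cells (144 to 150 against 187 to 210 TPM). Cell cycle genes were higher in 9 of 10 (129 to 171 against 485 to 525 TPM). The T cell list itself summed to 6044 to 6213 TPM in control and 6388 to 6731 TPM in Cd47ΔT libraries, with 2 of its 10 genes called higher and 1 lower. In cDC2 libraries the cDC2 list summed to 24413 to 31515 TPM in control and 22642 to 23272 TPM in Cd47ΔT libraries, without overlap. Of its 10 genes 1 was called lower, and no list of another cell type had more than 1 gene called. The T cell list summed to 166 to 208 TPM in control and 96.3 to 114 TPM in Cd47ΔT cDC2 libraries. Of its 10 genes 2 were tested there and 1 was called lower, and Cd3g was at 0 in every library. The part of these other markers in the results on BCL2 family genes was not tested. Levels relative to cDC2s are given below for the A1 copies and Pmaip1.

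The A1 genes Bcl2a1b and Bcl2a1d come first because their sequences limit what can be said about each. Mice carry several copies of Bcl2a1 on chromosome 9 where humans have a single gene. Over the first 120 coding bases, from the start codon, the copies read as follows in the GENCODE M21 transcripts, with the bases that differ between them in capitals.
Bcl2a1b: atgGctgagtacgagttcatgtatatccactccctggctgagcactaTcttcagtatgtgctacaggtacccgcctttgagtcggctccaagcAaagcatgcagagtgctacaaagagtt
Bcl2a1d: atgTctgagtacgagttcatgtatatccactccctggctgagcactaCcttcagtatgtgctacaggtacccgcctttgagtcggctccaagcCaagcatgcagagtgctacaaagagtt
Capitals mark 3 differences in this stretch, and over the whole coding sequence of 519 bases there are 6, which leaves 98.8% identity. Of all 50-base stretches of the transcript, 57.6% in Bcl2a1b and 79.5% in Bcl2a1d also occur in another copy. At 100 bases the shares are 31.1% and 54.7%. A short read therefore often cannot be placed on one copy, and how the estimate split such reads makes the level of each copy uncertain. The sum over 4 copies (Bcl2a1a, Bcl2a1b, Bcl2a1c and Bcl2a1d) is less affected by that split and is given beside the single genes. Close likeness also holds in the bases before the start sites, shown here for the copies among the members. In Bcl2a1a these bases were 99.5% identical to those of Bcl2a1b where aligned, and its log2 fold change in cDC2s was -0.026 ± 0.11. Whether these bases bear on the levels was not tested. The 250 bases before each start, from RefSeq (GRCm38.p6), are chr9:89199023-89199272 on the plus strand for Bcl2a1b and chr9:88731851-88732100 on the minus strand for Bcl2a1d, with differing or unmatched bases within the aligned part in capitals.
Bcl2a1b: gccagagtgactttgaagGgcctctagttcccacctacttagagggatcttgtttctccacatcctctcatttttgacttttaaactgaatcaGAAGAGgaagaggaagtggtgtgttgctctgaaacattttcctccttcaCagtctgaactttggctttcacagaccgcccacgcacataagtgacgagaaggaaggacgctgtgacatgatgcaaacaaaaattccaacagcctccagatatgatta
Bcl2a1d: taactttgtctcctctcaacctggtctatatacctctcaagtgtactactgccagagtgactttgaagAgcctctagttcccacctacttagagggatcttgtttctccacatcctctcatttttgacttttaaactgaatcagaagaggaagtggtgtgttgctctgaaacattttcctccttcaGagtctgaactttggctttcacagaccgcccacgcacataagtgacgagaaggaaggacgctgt
Over 200 aligned bases the windows had 2 mismatches, and Bcl2a1b held 1 extra run of 6 bases. The last bases of both windows lie inside the gene spans given below, because the RefSeq starts differ from those of GENCODE M21.

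In T cells, 3 of the 10 genes rose in Cd47ΔT mice, and all were antiapoptotic: Bcl2l1, Bcl2a1b and Bcl2a1d. None fell. With the near-identical Bcl2a1 copies summed, 2 of 9 were called. Pmaip1 and Bak1, which promote death, lay just above the threshold (limma's adjusted p = 0.0510 and 0.0505). The class of the called genes therefore rests on the cutoff. The share of all 12453 genes called higher was 8.50%, and of those called lower 0.875%. At an unadjusted p under 0.05, 7 of the 10 passed, where 21.6% of all genes did. The 2 genotypes did not overlap for 8 of the 10. In 7 of these the Cd47ΔT libraries were higher (37.0% of all genes), and in Mcl1 they were lower (11.9% of all genes). The median log2 fold change was 0.61 over the 10 genes and 0.10 over all genes.

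**Figure D1:**
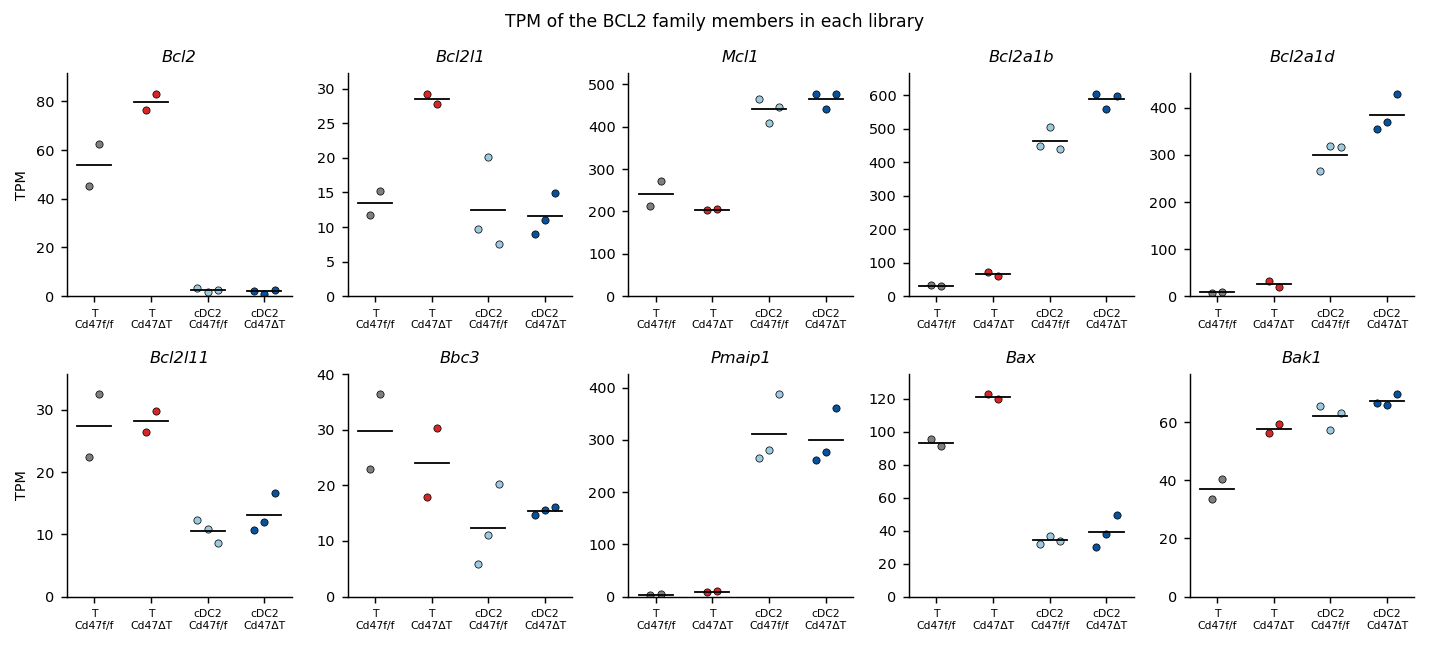
TPM of each of the 10 genes in every library, with 1 panel per gene, each with its own vertical axis from 0, and the libraries grouped by cell type and genotype. In T cells the Cd47ΔT points lie above the control points for 7 genes, and in cDC2s for Bcl2a1b, Bcl2a1d and Bak1.

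Bcl2a1b (ENSMUSG00000089929, chromosome 9, 89199209 to 89207827, plus strand of GRCm38) had 32.1 and 29.6 TPM in control T cells and at 73.6 and 60.4 TPM in Cd47ΔT T cells. Both Cd47ΔT libraries lay far above both controls. It rose by 1.09 ± 0.15 on the log2 scale (adjusted p = 0.0127), which is 0.99 above the median gene. Bcl2a1d (ENSMUSG00000099974, chromosome 9, 88723285 to 88731914, minus strand) stood at 7.02 and 9.54 TPM against 32.7 and 19.8 TPM. The genotypes were well apart, and the Cd47ΔT libraries were also far from each other. It rose by 1.52 ± 0.28 (adjusted p = 0.0258). Summed over the copies, A1 stood at 39.4 and 39.2 TPM in control and at 107 and 82.1 TPM in Cd47ΔT libraries, a rise of 1.24 ± 0.16 (adjusted p = 0.0110). The calls on both single genes were lost with no filter on low genes (limma's adjusted p = 0.0762 for Bcl2a1b and 0.115 for Bcl2a1d) and without Cd47ΔT T cell library 1 (0.0729 and 0.0965), and that on Bcl2a1d also without control library 1 (0.0889). Over all 16 alternatives the adjusted p lay between 7.07e-09 and 0.0762 for Bcl2a1b and between 1.56e-10 and 0.115 for Bcl2a1d, counting the sum of the copies as 1 alternative.

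Another copy, Bcl2a1a, read almost nothing in T cells, at 0 and 0.12 TPM in control and 1.22 and 1.93 TPM in Cd47ΔT libraries, but 160 to 194 TPM in control cDC2s. Genes that are high in cDC2s were therefore read as a share of their control cDC2 mean. The Cd47ΔT T cell libraries held 0.674% and 1.07% of Bcl2a1a. They held 0.587% and 1.14% of H2-Ab1, an MHC class II gene, and 0.648% and 1.01% of the dendritic cell factor Zbtb46. For Bcl2a1b the shares were 15.9% and 13.02%, up from 6.92% and 6.38% in control T cells. For Bcl2a1d they were 10.9% and 6.57%, up from 2.33% and 3.17%. The Bcl2a1b and Bcl2a1d shares were larger than those of Bcl2a1a, H2-Ab1 and Zbtb46 in the same libraries. The invariant chain Cd74 (1.32% and 2.26%) and the integrin Itgax (1.30% and 2.36%) stood between. Sirpa, which macrophages also express, was at 3.39% and 6.17%, close to Bcl2a1d in library 2. Cells other than cDC2s are not covered by these shares. Lyz2, a lysozyme of macrophages, monocytes and granulocytes, stood at 19.4 and 46.9 TPM in control and at 194 and 350 TPM in Cd47ΔT T cell libraries. In control T cells the Bcl2a1b and Bcl2a1d shares were already larger than those of H2-Ab1 (0.0607% and 0.0752%) and Zbtb46 (0.162% and 0.306%). The split of reads between copies limits the Bcl2a1a share, and the source of the A1 rise was not tested.

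Bcl2l1 (ENSMUSG00000007659, chromosome 2, 152780668 to 152831728, minus strand) encodes BCL-XL, which activated T cells induce. It stood at 11.8 and 15.2 TPM in control and at 29.3 and 27.7 TPM in Cd47ΔT T cells. Each Cd47ΔT library lay far above both controls, and the Cd47ΔT libraries differed little from each other. It rose by 1.03 ± 0.18 (adjusted p = 0.0236), 0.93 above the median gene. Limma's adjusted p was 0.0904 with no filter, 0.163 in 1 fit of all libraries, and 0.148 and 0.105 without Cd47ΔT T cell libraries 1 and 2 (9.08e-06 to 0.163 over 16 alternatives).

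Bcl2 and Mcl1, the most abundant antiapoptotic genes of control T cells, were not called. Bcl2 (ENSMUSG00000057329, chromosome 1, 106538178 to 106714274, minus strand) stood at 45.1 and 62.3 TPM in control and at 76.5 and 83.2 TPM in Cd47ΔT T cells. Its genotypes did not overlap, with a log2 fold change of 0.58 ± 0.18 and an adjusted p of 0.112. The value was 0.35 without control library 1 and 0.81 without control library 2, where it was called (limma's adjusted p = 0.0214, of 0.00253 to 0.521 over 16 alternatives). Mcl1 (ENSMUSG00000038612, chromosome 3, 95658788 to 95663176, plus strand), which codes for a short-lived protein on which most lymphocytes depend, stood at 212 and 272 TPM in control and at 203.9 and 204.9 TPM in Cd47ΔT T cells. The Cd47ΔT values lay just under the lower control value (-0.23 ± 0.14, adjusted p = 0.452). The Mcl1 value rested on the controls, at -0.41 without control library 1 and -0.05 without control library 2, and was called in none of 16 alternatives.

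Of the 3 BH3-only genes none was called, and they differed among themselves. Pmaip1 (ENSMUSG00000024521, chromosome 18, 66458533 to 66465565, plus strand), whose product NOXA binds MCL1 and A1, stood at 2.06 and 4.59 TPM in control and at 9.34 and 9.77 TPM in Cd47ΔT T cells. The genotypes were apart at a low level (1.35 ± 0.32, adjusted p = 0.0510). The adjusted p fell below the threshold in 7 of 16 alternatives and ranged from 2.18e-06 to 0.173. Against control cDC2s, where Pmaip1 is high, the Cd47ΔT T cell libraries held 3.0% and 3.14% of its level, up from 0.662% and 1.47% in control T cells. The Cd47ΔT shares lay above those of H2-Ab1, Zbtb46, Cd74 and Itgax and below those of Sirpa. In control T cells the shares were 0.139% and 0.204% for Cd74, 0.212% and 0.495% for Itgax and 0.416% and 0.606% for Sirpa. All of these control shares lay below that of Pmaip1 in the same library. The part of other cells in the Pmaip1 values was not tested. Bcl2l11 (ENSMUSG00000027381, chromosome 2, 128126038 to 128162547, plus strand) stood at 22.4 and 32.6 TPM in control and at 26.5 and 29.9 TPM in Cd47ΔT T cells. The Cd47ΔT values lay between the control values (0.06 ± 0.21, adjusted p = 0.942), and the sign turned with quantile and median-of-ratios scaling. Bbc3 (ENSMUSG00000002083, chromosome 7, 16308393 to 16318205, plus strand), a p53 target, stood at 22.9 and 36.5 TPM in control and at 17.9 and 30.2 TPM in Cd47ΔT T cells. Its genotypes overlapped (-0.30 ± 0.31, adjusted p = 0.709).

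The effector genes were higher in both Cd47ΔT libraries than in both controls without passing the threshold. Bak1 (ENSMUSG00000057789, chromosome 17, 27019810 to 27029009, minus strand) stood at 33.4 and 40.3 TPM in control and at 56.2 and 59.3 TPM in Cd47ΔT T cells (0.64 ± 0.15, adjusted p = 0.0505). Like Pmaip1 it lay at the threshold, below it in 7 of 16 alternatives (0.00183 to 0.401 over all). Bax (ENSMUSG00000003873, chromosome 7, 45461697 to 45466898, minus strand) stood at 95.5 and 91.0 TPM in control and at 123 and 119 TPM in Cd47ΔT T cells. The libraries of each genotype were close together (0.37 ± 0.11, adjusted p = 0.101). Relative to the median gene, the members not yet given so stood at 1.42 (Bcl2a1d), 0.48 (Bcl2), -0.33 (Mcl1), 1.25 (Pmaip1), -0.05 (Bcl2l11), -0.40 (Bbc3), 0.54 (Bak1) and 0.27 (Bax) on the log2 scale.

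**Figure D2:**
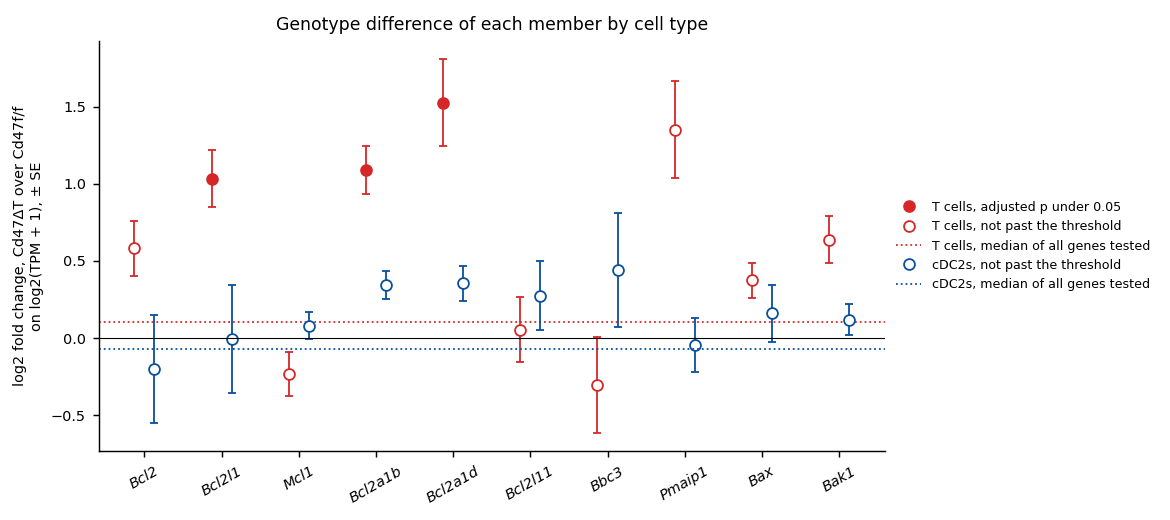
Log2 fold change of each gene between Cd47ΔT and Cd47f/f on the log2(TPM + 1) scale, for T cells and cDC2s, with bars of 1 SE, filled points for adjusted p under 0.05 and dotted lines at the median of all genes tested. Bcl2l1, Bcl2a1b and Bcl2a1d in T cells are the 3 filled points, between 1.03 and 1.52, and no cDC2 point is filled.

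In cDC2s no member was called by limma, in the main setting or in any of 18 alternatives, where 0.249% of all 12058 genes were called higher and 0.381% lower. At an unadjusted p under 0.05, 2 of the 10 passed, where 13.4% of all genes did. The genotypes did not overlap for 3 of the 10, each higher in Cd47ΔT cDC2s (6.38% of all genes), and 0 were lower without overlap (13.5% of all genes). Bcl2a1b stood at 449, 505 and 438 TPM in control and at 605, 560 and 597 TPM in Cd47ΔT cDC2s (0.34 ± 0.09, adjusted p = 0.152). Bcl2a1d stood at 267, 320 and 316 TPM in control and at 356, 369 and 430 TPM in Cd47ΔT cDC2s (0.36 ± 0.11, adjusted p = 0.233). All Cd47ΔT libraries lay above all controls for both copies, as they did for the sum over the copies (876 to 1020 against 1121 to 1200 TPM), whose adjusted p was 0.228. Bak1 stood at 65.5, 57.5 and 63.0 TPM in control and at 66.5, 65.8 and 69.8 TPM in Cd47ΔT cDC2s (0.12 ± 0.10, adjusted p = 0.667).

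Other cDC2 values overlapped between the genotypes. Mcl1 stood at 466, 409 and 447 TPM in control and at 477, 442 and 478 TPM in Cd47ΔT cDC2s (0.08 ± 0.09). Pmaip1 stood at 266, 280 and 388 TPM in control and at 262, 278 and 360 TPM in Cd47ΔT cDC2s (-0.05 ± 0.18, its sign turning with median-of-ratios and protein-coding scaling). Both genes were high in every library and did not separate the genotypes. Bax lay at 32.1 to 36.6 and 29.8 to 49.1 TPM, Bcl2l11 at 8.59 to 12.3 and 10.7 to 16.7 TPM, and Bbc3 at 5.90 to 20.3 and 14.6 to 16.2 TPM. Bcl2l1 varied widely among controls (9.67, 20.2 and 7.52 TPM, against 9.06, 10.96 and 14.9 TPM), and its log2 fold change of -0.0031 ± 0.35 turned sign with a pseudocount of 0.1 and with quantile, median-of-ratios and protein-coding scaling. Bcl2 was the lowest member, at 1.55 to 3.38 TPM in control and 1.06 to 2.69 TPM in Cd47ΔT cDC2s. The median log2 fold change was 0.14 over the 10 genes and -0.07 over all genes.

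The genotype effect differed between the cell types for 3 of the 10 genes, each more positive in T cells, where 5.40% of 10650 genes were called in that direction and 0.300% in the other. Kit and cell type cannot be told apart in such a difference. At an unadjusted p under 0.05, 4 passed, where 15.8% of all genes did. The difference, T cells minus cDC2s, was 0.75 ± 0.17 for Bcl2a1b (adjusted p = 0.0219), 1.17 ± 0.28 for Bcl2a1d (0.0324) and 1.40 ± 0.35 for Pmaip1 (0.0376), by limma's interaction test. Summed over the copies, A1 differed by 0.95 ± 0.17 (adjusted p = 0.00696). For Bcl2l1 the difference was 1.04 ± 0.48 (adjusted p = 0.321), so its call in T cells alone does not show that its effect differed between the cell types. These effects are relative, and on the TPM scale the A1 sum was higher on average by more in cDC2s (947 to 1154 TPM) than in T cells (39.3 to 94.8 TPM). No member was called for the difference with quantile scaling, with no variance trend, or without Cd47ΔT T cell library 1 or Cd47ΔT cDC2 library 2. Without control cDC2 library 3, the library that stood apart, 1 was called, as without control T cell library 1, control cDC2 library 2 or Cd47ΔT cDC2 library 1.

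The 2 cell types differed in which members carried the class. Control T cells held 22.0 times the Bcl2 level of control cDC2s, and control cDC2s 93.6 times the Pmaip1, 36.3 times the Bcl2a1d and 15.0 times the Bcl2a1b level of control T cells. In order of mean TPM, control T cells had Mcl1 (242), Bax (93.3), Bcl2 (53.7), Bak1 (36.9), Bcl2a1b (30.8), Bbc3 (29.7), Bcl2l11 (27.5), Bcl2l1 (13.5), Bcl2a1d (8.28) and Pmaip1 (3.33). Among neighbours in that order, only Bcl2a1b and Bbc3, and Bbc3 and Bcl2l11, overlapped in range. Control cDC2s had Bcl2a1b (464), Mcl1 (441), Pmaip1 (311), Bcl2a1d (301), Bak1 (62.0), Bax (34.0), Bcl2l1 (12.5), Bbc3 (12.4), Bcl2l11 (10.6) and Bcl2 (2.44). Here Bcl2a1b and Mcl1, Pmaip1 and Bcl2a1d, Bcl2l1 and Bbc3, and Bbc3 and Bcl2l11 overlapped. Library kit and cell type cannot be told apart in these folds, so they carry no test.

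As a share of the summed TPM of the 5 antiapoptotic members, Mcl1 made up 68.8% and 70.0% in control T cells and 49.0% and 51.8% in Cd47ΔT T cells. Bcl2a1b and Bcl2a1d together went from 12.7% and 10.1% to 25.5% and 20.2%, Bcl2l1 from 3.83% and 3.92% to 7.04% and 6.998%, and Bcl2 from 14.6% and 16.0% to 18.4% and 21.01%. None of these shares overlapped between the genotypes. In T cells the levels of 37.0% (higher) and 11.9% (lower) of all genes did not overlap either. Shares of a class have a fixed total, so higher shares of some members go with lower shares of others. The level of Mcl1 in T cells was not called (log2 fold change -0.23 ± 0.14, limma's adjusted p = 0.452). In cDC2s the A1 pair alone took 59.9% to 65.7% in control and 66.3% to 67.5% in Cd47ΔT libraries, also without overlap. Levels did not overlap there for 6.38% (higher) and 13.5% (lower) of all genes. Mcl1 took most of the rest (32.6% to 39.0% and 31.4% to 32.9%). Among BH3-only members, Pmaip1 went from 4.35% and 6.23% to 17.4% and 13.98% in T cells, and took 92.7% to 93.6% in control and 91.0% to 91.6% in Cd47ΔT cDC2s. Shares within a class are descriptions, and Bcl2a1a is not in them.

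**Figure D3:**
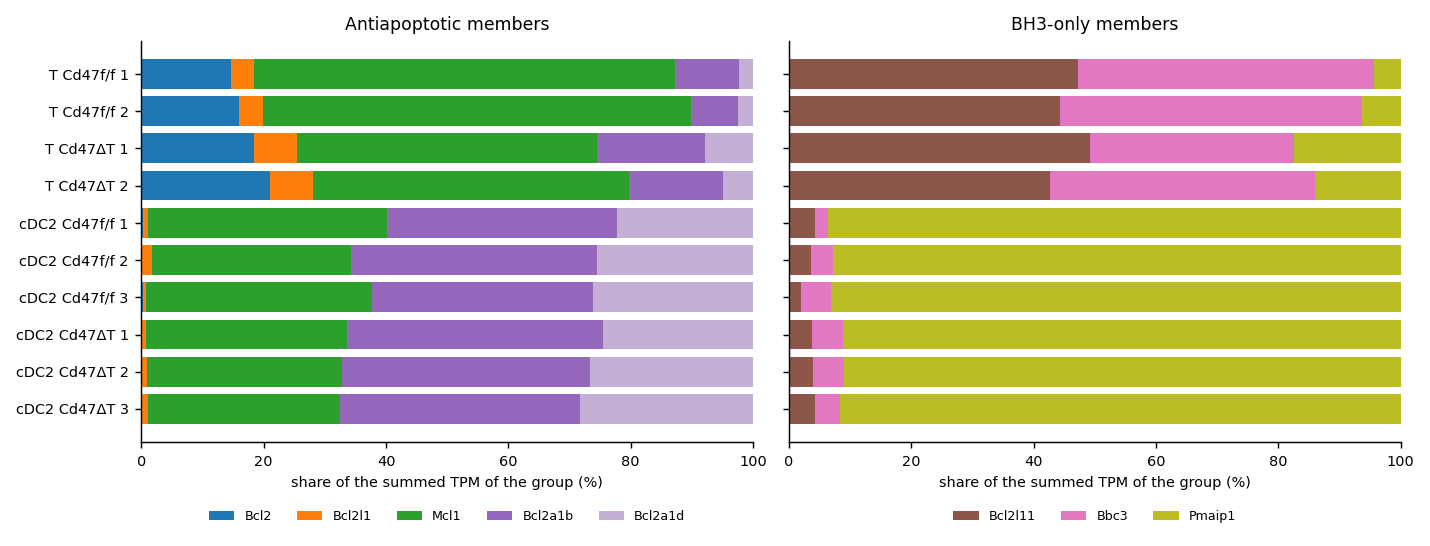
Share of each gene in the summed TPM of the 5 antiapoptotic genes (left) and the 3 BH3-only genes (right), 1 bar per library, in percent. Mcl1 leads in T cells and Bcl2a1b with Bcl2a1d in cDC2s, and Pmaip1 takes at least 91.0% of the BH3-only sum in all cDC2 libraries.

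A ratio of 2 genes within a library does not move with a scaling that applies 1 factor to the whole library. In T cells the log2 ratio of Bcl2 to Bcl2l11 was 1.01 and 0.93 in control and 1.53 and 1.48 in Cd47ΔT libraries, and that of Bcl2l1 to Bcl2l11 was -0.93 and -1.10 against 0.15 and -0.11. Both survival genes were higher relative to the gene for BIM in each Cd47ΔT library. Mcl1 went the other way, at 3.24 and 3.06 against 2.95 and 2.78 relative to Bcl2l11, and at 6.68 and 5.89 against 4.45 and 4.39 relative to Pmaip1. None of these 4 ratios overlapped between the genotypes in T cells, a split that the levels of 37.0% (higher) and 11.9% (lower) of all genes also showed with 2 libraries per genotype. The ratio of Bcl2 to Bax overlapped (-1.08 and -0.55 against -0.68 and -0.52). So did that of all antiapoptotic to all BH3-only members (2.70 and 2.40 against 2.95 and 2.50). In cDC2s all 6 ratios overlapped between the genotypes.

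**Figure D4:**
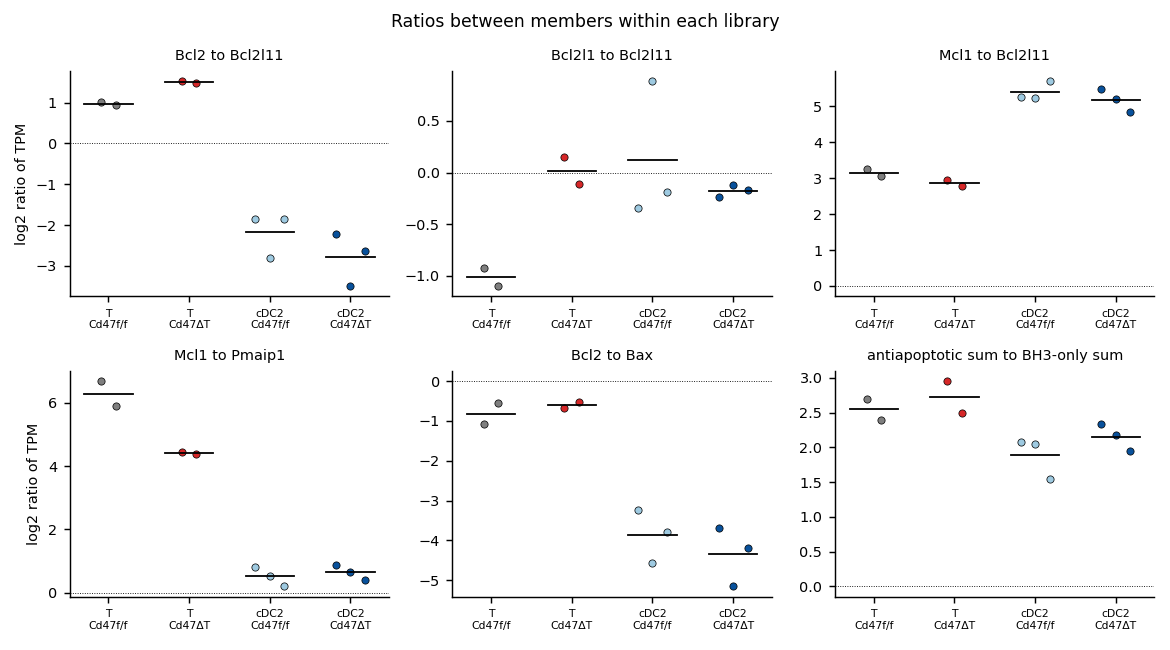
Log2 ratio of TPM between pairs of genes, and between the summed antiapoptotic and summed BH3-only genes, in each library, with 1 point per library. In T cells the points of the 2 genotypes separate for the 3 ratios to Bcl2l11 and for Mcl1 to Pmaip1, and in cDC2s they overlap in all 6 panels.

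Of 80 other genes of the pathway, 71 were tested in T cells, where 5 were higher, 1 was lower and 16 passed at an unadjusted p under 0.05. Over all genes 8.50% were called higher, 0.875% were called lower and 21.6% passed unadjusted, so these counts were near the background. With no filter on low genes all 6 of these calls were lost. In cDC2s 72 were tested and 1 was higher (0.249% of all genes), with 12 at an unadjusted p under 0.05 (13.4% of all genes). For the difference, 69 were tested, with 2 higher and 1 lower (5.40% and 0.300% of all genes). Among 10 other BCL2 family genes tested, 1 was called in T cells: Bcl2a1a, whose rise of 1.27 ± 0.25 (adjusted p = 0.0314) rests on levels under 2 TPM and ranged from 0.38 to 3.46 with the pseudocount. That call was also lost without control T cell library 1 (limma's adjusted p = 0.115) or 2 (0.0703), of 6.79e-05 to 0.115 over 15 alternatives. Bid, which links death receptors to BAX and BAK1, stood at 16.8 and 21.1 TPM in control and at 26.4 and 26.2 TPM in Cd47ΔT T cells. In cDC2s it stood at 22.4 to 27.6 TPM in control and at 12.4 to 18.7 TPM in Cd47ΔT libraries. It was called in neither cell type (adjusted p = 0.193 and 0.205), but the difference was, at 1.09 ± 0.29 (adjusted p = 0.0466), a call lost in 16 of 21 alternatives.

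Of 13 apoptosome and caspase genes, which act downstream of the mitochondria, 3 passed at an unadjusted p under 0.05 in T cells (21.6% of all genes). For 8 of them the genotypes did not overlap there, as for 37.0% (higher) and 11.9% (lower) of all genes. In cDC2s none was called by limma and 0 passed at an unadjusted p under 0.05 (13.4% of all genes). There Casp9, the apoptosome caspase, had the smallest p (-0.37 ± 0.18, adjusted p = 0.437). Of 5 inhibitors of apoptosis and 12 tested genes for MCL1 and BIM turnover and BCL2 partners, none was called in either cell type. Their unadjusted passes were 0 and 1 in T cells and 2 and 1 in cDC2s. Birc2, an inhibitor of apoptosis, had log2 fold changes of 0.16 ± 0.17 in T cells and 0.32 ± 0.10 in cDC2s, and Birc3 of 0.12 ± 0.15, whose sign turned with quantile and median-of-ratios scaling, and -0.21 ± 0.09.

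In the p53 pathway 2 of 11 tested genes rose in T cells, where 8.50% of all genes did. None was called in cDC2s by limma, with 1 of 11 at an unadjusted p under 0.05 (13.4% of all genes). Cdkn1a, the cell cycle inhibitor p21, rose from 0.32 and 0.82 to 4.12 and 4.40 TPM (1.76 ± 0.25, adjusted p = 0.0130). Phlda3, a p53 target that restrains AKT, rose from 1.26 and 0.84 to 4.33 and 3.83 TPM (1.32 ± 0.23, adjusted p = 0.0229). Both genes lay near 1 TPM or lower in control T cells, and the call on Phlda3 was lost with quantile scaling (limma's adjusted p = 0.0978, of 1.82e-05 to 0.0978 over 15 alternatives). In cDC2s Phlda3 stood at 0.75 to 1.02 TPM in control and at 3.22 to 4.29 TPM in Cd47ΔT libraries (1.32 ± 0.26, adjusted p = 0.0878), and the difference between the cell types was -0.0039 ± 0.37 (adjusted p = 0.998).

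Of 20 upstream survival regulators tested in T cells, 1 rose and 1 fell, where 8.50% and 0.875% of all genes did. At an unadjusted p under 0.05, 5 passed there (21.6% of all genes), and 7 of 19 tested in cDC2s (13.4% of all genes). Il7r, the interleukin 7 receptor chain that sustains Bcl2 in naive T cells, fell by 0.71 on the log2 scale (SE 0.12, adjusted p = 0.0199), from 254 and 300 to 164 and 172 TPM. Il2rb, a receptor chain for interleukins 2 and 15, rose by 1.17 ± 0.22 (adjusted p = 0.0264), from 116 and 185 to 312 and 352 TPM. The Il2rb call was lost with no variance trend (limma's adjusted p = 0.0560, of 1.96e-17 to 0.123 over 16 alternatives). The Il7r call was lost with no variance trend (0.0626), in 1 fit of all libraries (limma's adjusted p = 0.0592) and without Cd47ΔT T cell library 1 (0.1003) or 2 (0.0656), of 1.03e-06 to 0.1003 over 16 alternatives. NK cells also express Il2rb, and NK cell markers were among those higher in these libraries. In cDC2s Il7r stood at 3.04 to 4.19 TPM in control and at 7.02 to 10.4 TPM in Cd47ΔT libraries (1.06 ± 0.24, adjusted p = 0.112), and its effect differed between the cell types by -1.78 ± 0.27 (adjusted p = 0.00261). Relb, an NF-kB subunit of dendritic cell maturation, was the pathway gene called in cDC2s. It stood at 267, 287 and 261 TPM in control and at 400, 395 and 450 TPM in Cd47ΔT cDC2s, and rose by 0.61 ± 0.09 (adjusted p = 0.0364). That call was lost in 9 of 18 alternatives, including without any 1 library, with adjusted p from 0.0141 to 0.152.

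**Figure D5:**
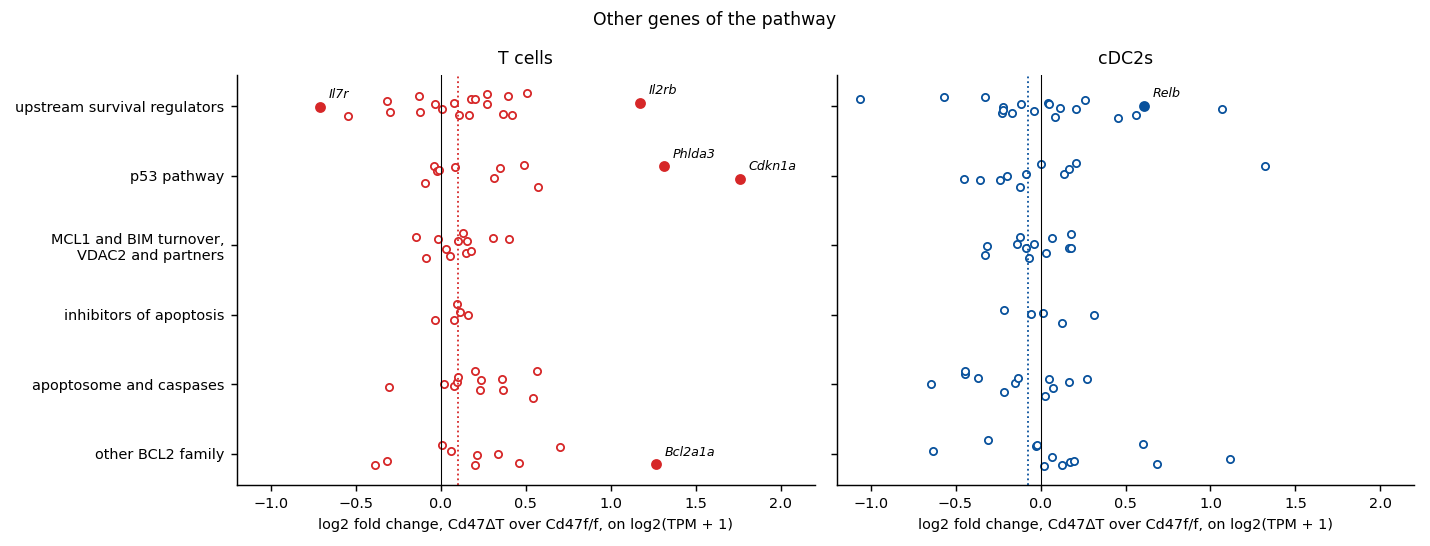
Log2 fold changes of the tested pathway genes by list, on the log2(TPM + 1) scale, for T cells (left) and cDC2s (right), with filled and named points for adjusted p under 0.05 and dotted lines at the median of all genes. In T cells Bcl2a1a, Cdkn1a, Phlda3 and Il2rb to the right and Il7r to the left are filled, and in cDC2s only Relb. The plot leaves out 1 gene.

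Promoter windows from RefSeq (GRCm38.p6, the 250 bases before a start) were matched for 9 of the 10 members (all but Pmaip1), in 14 windows. Each was searched on both strands for an NF-kB motif (GGG, any 2 bases, then TTTCC), a STAT motif (TTCNNNGAA) and a FOXO motif (TGTTTAC). Of 32851 windows of the same length in the table, 1.41%, 7.02% and 3.17% held them. The NF-kB letters were in 1 window each of Bcl2l1 (218 bases before the start), Mcl1 (28) and Bbc3 (136), and the FOXO letters in 1 window each of Bcl2l11 (227) and Bbc3 (167). No window of Bcl2a1b or Bcl2a1d held any of them, and no member's window held the STAT letters. A match describes letters and not binding. The matching window of Bcl2l1 lies inside the gene span given above from GENCODE M21, because it precedes another RefSeq start. The Bcl2l1 window, at chr2:152830718-152830967 on the minus strand, is shown because Bcl2l1 is the called member that holds a match, which is in capitals.
Bcl2l1: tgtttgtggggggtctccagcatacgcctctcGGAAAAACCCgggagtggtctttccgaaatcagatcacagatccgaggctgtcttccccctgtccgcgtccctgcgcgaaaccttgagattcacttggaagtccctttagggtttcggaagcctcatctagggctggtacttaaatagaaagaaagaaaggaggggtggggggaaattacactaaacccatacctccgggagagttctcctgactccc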

How the data were processed

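RNA sequencing values of 10 libraries were grouped by cell type and genotype as labelled. The deposited table gives TPM computed by the authors for 45706 Ensembl genes. STAR, RSEM, DESeq2 and GRCm38 are named without versions, per the submitters' processing notes; the sources used here give neither annotation release nor strand setting. Symbols came from GENCODE M21, which matched 45143 identifiers (98.8%). A gene was tested where 2 or more T cell libraries, or 3 or more cDC2 libraries, reached 1 TPM. Each cell type was tested by limma 3.58.1 (lmFit, then eBayes with trend, R 4.3.3) on log2(TPM + 1). The difference between the cell types was tested as an interaction, over genes passing both filters, with all 10 libraries in 1 fit. All p-values were adjusted by Benjamini-Hochberg over all genes tested. All 10 members passed the filters in both cell types. Named pathway genes were those past the threshold, or else those with the smallest p per list, up to 2 in each cell type and 1 for the difference. Members, lists and alternatives were chosen with earlier results of these data known. One gene that the pathway counts hold is not reported here. The steps were tested on simulated data. Sequences were read with Python 3.11.15 and aligned with Biopython 1.88. Alternatives were other pseudocounts, filters, scalings and variance trends, 1 fit of all libraries, summed Bcl2a1 copies, the replicate number as a block and leaving out each library.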

Additional observations from a re-analysis of the deposited data

Results flagged for a closer look

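The genotype effect differed between T cells and cDC2s, by limma's interaction test over all genes, for 6 of the genes described. These were 3 of the 10 members, all higher, and among 69 other pathway genes tested 2 higher and 1 lower. Over all genes 5.40% were called higher and 0.300% lower. Cell type and kit cannot be told apart in these differences. On the log2 scale, T cells minus cDC2s, the difference was -1.78 for Il7r, which kept its call in 21 of 21 alternatives. It was 1.29 for Bcl2a1a, a gene near 0 TPM in control T cells, and 1.09 for Bid, whose TPM were apart between the genotypes in opposite directions in the 2 cell types. For the members it was 0.75 for Bcl2a1b, 1.17 for Bcl2a1d and 1.40 for Pmaip1. These members kept their calls in 14, 9 and 9 of 21 alternatives, Bcl2a1a in 17 of 20 and Bid in 5 of 21.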

How the results depend on the processing

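The number of members called in T cells, 3, became 0 with no filter, 5 with median-of-ratios scaling, protein-coding scaling or a robust variance trend, and 0 to 6 on leaving out 1 library. The 0 came without Cd47ΔT library 1 and the 6 without control library 2. Where 1 library remained in a group, its spread was taken to be that of the other genotype. Under the named scalings and the robust variance trend, the added members were Pmaip1 and Bak1. For the difference between the cell types, 3 became 1 with a pseudocount of 5 or no filter, 0 with quantile scaling or no variance trend, 1 with median-of-ratios scaling (Mcl1, lower), and 0 to 3 on leaving out 1 library. In cDC2s the count was 0 under all 18 alternatives. With the replicate number as a block, 6 members were called in T cells, 0 in cDC2s and 2 for the difference. Same-numbered libraries correlated at r = 0.19 in T cells and at -0.044, 0.059 and 0.12 in cDC2s (2 pairs give a single T cell value). Neither the labels nor these values establish a pairing. The cause of these changes was not tested.

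Log2 fold changes that were small turned sign. On leaving out 1 library, T cell values ranged from -0.21 to 0.32 for Bcl2l11, from -0.66 to 0.062 for Bbc3, from -0.0026 to 0.33 for Birc2, from -0.030 to 0.26 for Birc3 and from -0.00076 to 0.61 for Cdk2. In cDC2s they ranged from -0.40 to 0.054 for Bcl2, from -0.28 to 0.38 for Bcl2l1, from -0.19 to 0.12 for Pmaip1 and from -0.018 to 0.33 for Bax. The difference for Bcl2l11 ranged from -0.48 to 0.042. With quantile scaling Bcl2l11 (-0.075) and Birc3 (-0.00582) turned in T cells and Bcl2l1 (0.055) in cDC2s. With median-of-ratios scaling Bcl2l11 (-0.095) and Birc3 (-0.039) turned in T cells, Bcl2l1 (0.069) and Pmaip1 (0.034) in cDC2s, and Bax (-0.013) for the difference. In cDC2s Bcl2l1 (0.060) and Pmaip1 (0.021) also turned with protein-coding scaling, and Bcl2l1 (0.00313) with a pseudocount of 0.1.

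Over all genes, 1058 higher and 109 lower T cell calls became 14 and 1 with no filter, 679 higher with a filter of 5 TPM and 1986 and 310 with the replicate block. On leaving out 1 library they ranged from 585 to 1439 and from 51 to 140. In cDC2s 30 and 46 became 2 and 4 with no filter, 7 and 5 with no variance trend, 3 and 1 with the block and 68 and 103 in 1 fit of all libraries. They were 0 and 0 without control library 1 or Cd47ΔT library 1 or 3. For the difference, 575 and 32 became 375 and 20 with a filter of 5 TPM. Depth is unknown from TPM, so no counting limit can be given.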

Other observations

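Some other BCL2 family genes, chosen here after their values were seen, also stood at different levels in the 2 cell types, which were made with different kits. Bmf, a BH3-only gene, stood at 1.97 and 3.60 TPM in control T cells and at 36.7 to 54.1 TPM in control cDC2s. Bcl2l14 stood at 0.84 and 0.56 TPM in control T cells and at 5.39 to 11.3 TPM in control cDC2s. Neither was called between the genotypes in cDC2s by limma, with log2 fold changes of -0.31 ± 0.29 (adjusted p = 0.699) and 0.60 ± 0.26 (adjusted p = 0.384). Bcl2l10 was listed at 0 in all 10 libraries.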
